A study of Mus musculus with 4 samples.

Results

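The genes described here are 55 transcripts that mark macrophages, monocytes and neutrophils, taken from the hepatic 3′mRNA sequencing of APAP-induced acute liver injury by matching gene symbols in the count table. They are 55 of 27027 entries in that table, and all 55 were found. Acetaminophen (APAP) is an analgesic that destroys liver parenchyma when overdosed, and the study asked which genes change while the liver begins to recover. Hepatic RNA of male C57BL/6J mice aged 9 to 12 weeks was pooled within each group, and every group gave 1 library by massive analysis of cDNA ends (MACE), a method that counts fragments from the 3′ end of polyadenylated mRNA. The control pools held 6 mice each, which received 0.9% NaCl i.p. and were killed after 24 h or 48 h. The APAP pools held 7 mice each, which received 300 mg/kg APAP i.p. and were killed at the same times. All mice had been fasted for 10 h before treatment, no group carried a genetic change, and the livers were flushed with PBS before sampling. Libraries held 4859661 to 5698778 reads.

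The liver holds its own macrophages, the Kupffer cells, which sit in the sinusoids and take up particles, bacteria and dying cells. Injury brings in further leukocytes from the blood: neutrophils first, and Ly6C-high monocytes that can mature into macrophages clearing dead tissue. Kupffer cells are recognised by genes such as Clec4f, Vsig4 and Timd4, newly arrived monocytes by Ly6c2, Ccr2 and Chil3, and neutrophils by Csf3r, Cxcr2 and granule genes, while other genes are shared by all of these cells.

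Each fold below is the ratio of an APAP library to the control library of the same time point after scaling by size factors (numbers that equalise the typical gene between libraries), with a 95% exact interval for counting error. A gene is said to have risen when it was at least 2-fold higher and its interval lay above 1, with counts under 3 reads set to 3 for the 2-fold and 5-fold thresholds. Because each group is a single pooled library, replicates are lacking, no p-value can be given, and the intervals compare these libraries rather than mice. In bulk RNA, more cells of a type and more RNA per cell cannot be told apart.

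At 24 h after APAP, 15 of the 55 genes had risen, or 27.3%, against 3.15% of the 24767 entries with at least 1 read. At 48 h, 34 had risen, or 61.8%, against 3.23% of entries. The members and the further lists below were chosen with earlier results of these data known. These shares, and later ones set beside all entries, therefore describe the lists and are no test of enrichment. No member was at least 2-fold lower with its interval under 1 at either time, where 3.07% of entries were lower at 24 h and 2.96% at 48 h. Among entries with at least 20 reads over the libraries, which 46 members reached, the share that rose was 5.31% at 24 h and 5.18% at 48 h. The median log2 fold of the members, with a pseudocount of 1 normalised read, was 0.98 at 24 h and 1.33 at 48 h, while the median over all entries was 0 at both times. Scaling by library totals in place of size factors moved the log2 folds up by 0.19 at 24 h and 0.27 at 48 h, and 20 and 37 members had then risen.

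Of the members, 14 had risen at both times (0.953% of entries did), 1 at 24 h alone, 20 at 48 h alone and 20 at neither. The gene called at 24 h alone was Retnlg, which was called at 48 h as well when set against the 24 h control. At least 5-fold induction, the threshold used by the study, was passed by 6 members at 24 h (0.517% of entries) and 13 at 48 h (0.307% of entries). Ly6c2, Chil3, Lsp1 and Runx1 passed it at both times, as 0.101% of entries did.

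**Figure D1:**
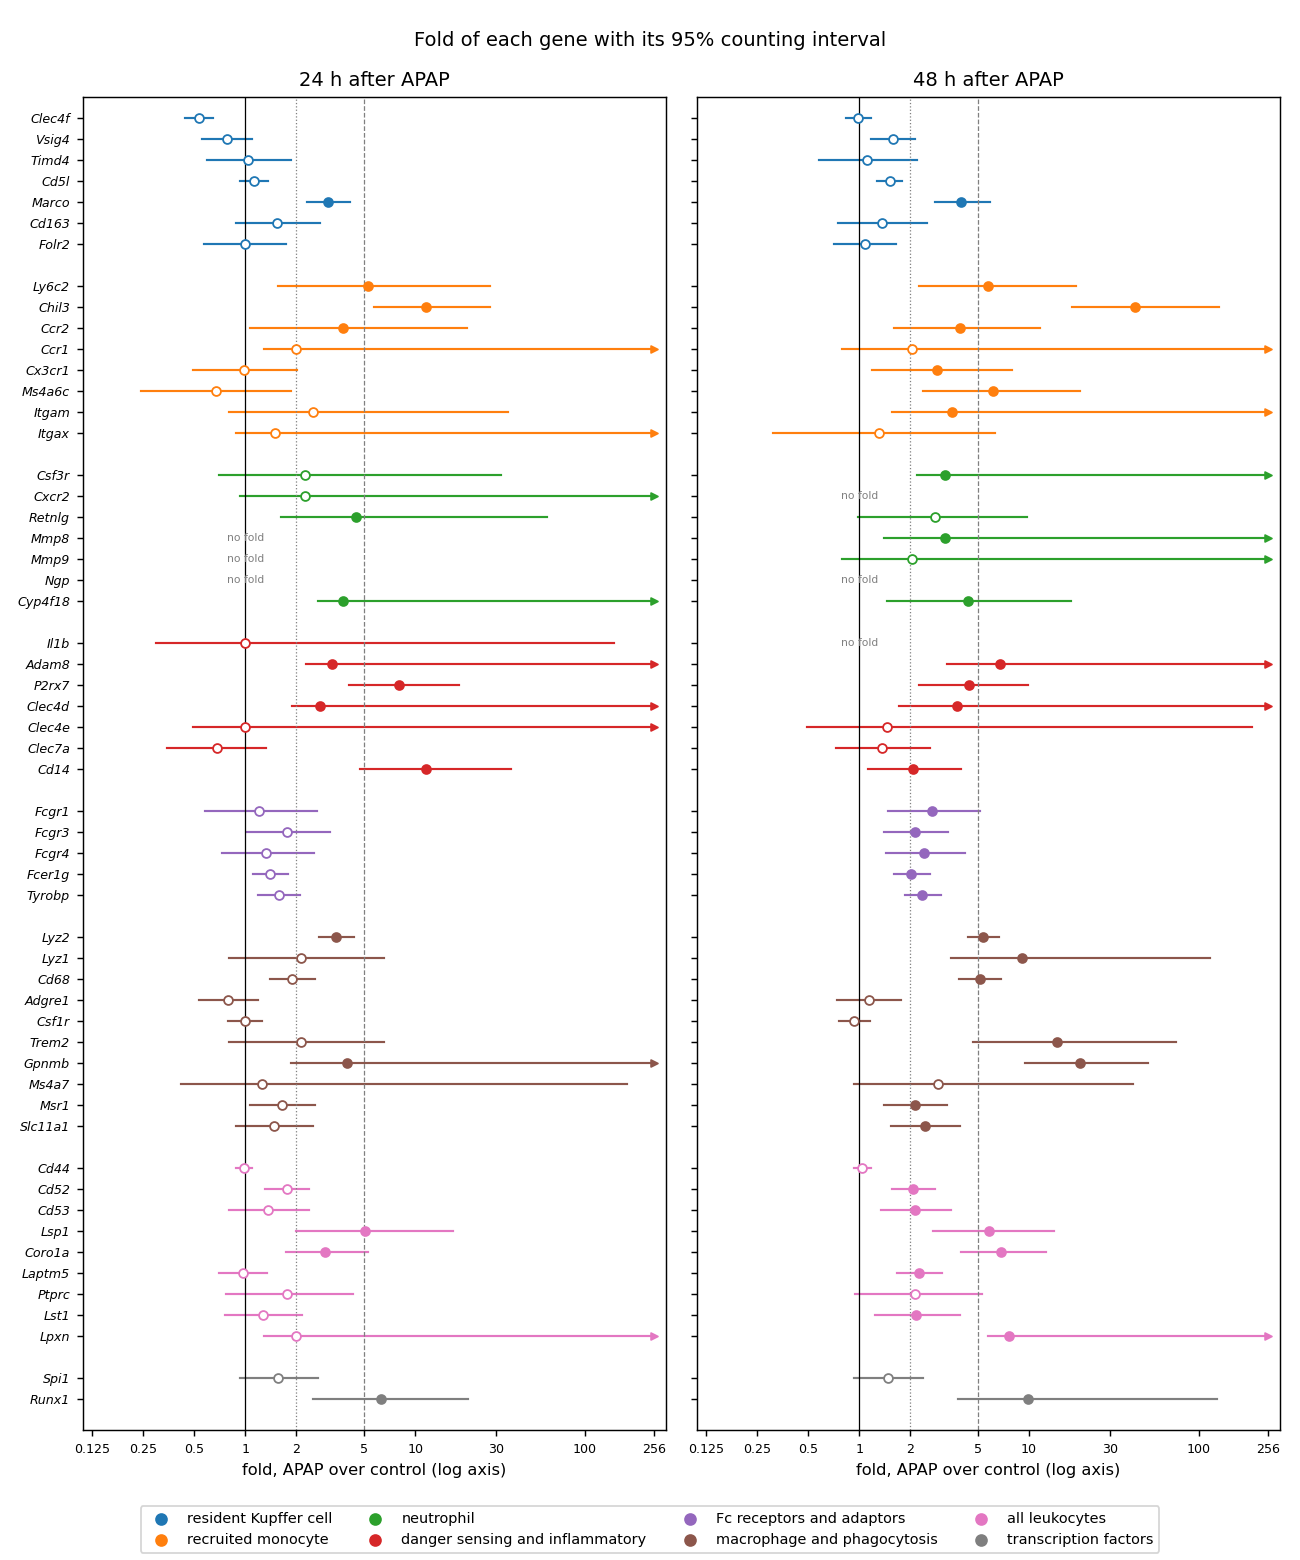
Fold of each of the 55 genes, APAP over control of the same time (log axis), at 24 h and 48 h, ordered and coloured by role. Points are folds with control and APAP counts under 3 reads set to 3, filled where the gene had risen, lines are 95% counting intervals of the unadjusted counts with arrows where they leave the axis, and dotted and dashed lines mark 2-fold and 5-fold; 15 points are filled at 24 h and 34 at 48 h, and Marco is the single filled point among the resident Kupffer cell genes.

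Genes of resident Kupffer cells made up 7 of the 55, and 1 of them, Marco, had risen. Summed over the list, their normalised reads were 1.03 times the control (95% interval 0.926 to 1.14) at 24 h and 1.41 times (1.28 to 1.55) at 48 h. Without Marco, a setting chosen after seeing the data, the sums were 0.819 times (0.731 to 0.917) and 1.26 times (1.13 to 1.39) the control.

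Clec4f encodes a C-type lectin that in mice is largely restricted to Kupffer cells. Its reads were 268 in the 24 h control, 261 in the 48 h control, 191 at 24 h after APAP and 294 at 48 h. The 24 h APAP library was the lowest of the 4, at 0.53 times its control (0.441 to 0.645), an interval under 1 for a change short of 2-fold, and the 48 h library was at 0.99 times (0.831 to 1.17), or 1.18 times when scaled by library totals. The ratio of the 48 h fold to the 24 h fold was 1.84 (1.43 to 2.39).

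Vsig4, the complement receptor with which Kupffer cells catch opsonised particles, gave 70 reads in each control, 73 at 24 h and 126 at 48 h after APAP. Only the last library stood above the others, at 1.57 times its control (1.17 to 2.14), after 0.78 times (0.555 to 1.10) at 24 h. Cd5l encodes a secreted protein of tissue macrophages. It gave 184 and 224 reads in the 24 h and 48 h controls, then 275 and 387 after APAP, a fold of 1.12 (0.926 to 1.36) and then 1.51 (1.28 to 1.79). Neither gene reached 2-fold at any time.

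Marco encodes a scavenger receptor that binds bacteria and debris. Its reads rose from 60 in the 24 h control to 245 after APAP, and from 37 in the 48 h control to 169 after APAP. Both APAP libraries lay well above both controls, with folds of 3.06 (2.30 to 4.13) and 3.99 (2.78 to 5.87). Against the control pool of the other time the folds were 5.26 and 2.32, so that the order of the 2 times depends on which control is used.

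Timd4, a phosphatidylserine receptor for apoptotic cells, was counted at 23 and 18 reads in the controls and at 32 and 23 after APAP, with folds of 1.04 and 1.12. Cd163 takes up haemoglobin bound to haptoglobin; it had 20 reads in each control, 41 at 24 h and 31 at 48 h after APAP. Folr2, a folate receptor of tissue macrophages, had 25 and 43 reads in the controls and 33 and 53 after APAP. The intervals of these 3 genes all included 1 at both times, and with so few reads changes well below 2-fold could not be resolved. With the control pools exchanged, Folr2 was at 0.61 times (0.375 to 0.982) at 24 h and 1.75 times (1.07 to 2.94) at 48 h. Its values therefore depend on which control is used.

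**Figure D2:**
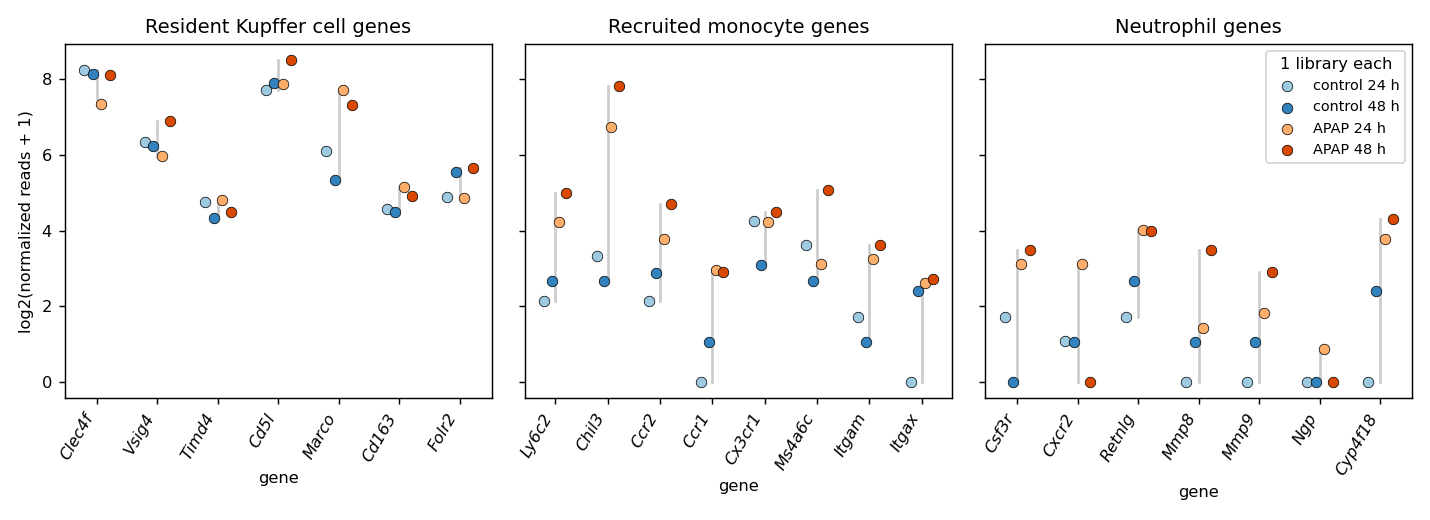
Normalised reads on a log2(normalised reads + 1) scale for the resident Kupffer cell, recruited monocyte and neutrophil genes. Each point is 1 library (6 or 7 pooled mice) and grey lines span the 4 libraries. Of the resident genes, Marco alone passed the 2-fold rule. Smaller differences with intervals off 1 were Clec4f under the controls at 24 h, and Cd5l and Vsig4 above them at 48 h. For Ly6c2, Chil3 and Ccr2 the APAP points lie above both controls at both times.

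Genes of recruited monocytes numbered 8, of which 3 had risen at 24 h and 6 at 48 h. Their summed reads were 42 and 34 in the controls, 214 at 24 h and 385 at 48 h after APAP, giving folds of 3.82 (2.73 to 5.45) and 9.90 (6.96 to 14.5). Chil3 carried most of these reads: without it the folds were 1.98 (1.32 to 3.04) and 4.31 (2.88 to 6.67).

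Chil3 encodes the chitinase-like protein Ym1 of monocytes and alternatively activated macrophages. It went from 8 to 124 reads at 24 h and from 5 to 242 at 48 h. All APAP counts exceeded the controls by more than 10-fold, with folds of 11.6 (5.71 to 27.5) and 42.3 (17.9 to 132), and the second was 3.64 times the first (1.02 to 14.4). Exchanging the control pools gave folds of 19.7 and 24.9, which lie closer together. The last bases of Chil3 are 89.4% identical to those of Chil4, which had 0 reads in 3 libraries and 1 in the 48 h APAP library.

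Ly6c2 encodes the surface antigen by which inflammatory monocytes are sorted. It was read 3 and 5 times in the controls and 21 and 33 times after APAP, with folds of 5.24 (1.57 to 27.5) and 5.77 (2.24 to 18.9). Its 3′ end is 98.7% identical over 300 bases to that of Ly6c1, a gene also used by endothelial cells, so some reads may be shared between these genes. Ly6c1 itself had 4, 6, 6 and 5 reads in the order 24 h control, 48 h control, 24 h APAP and 48 h APAP, and showed no comparable difference.

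Ccr2, the chemokine receptor that releases monocytes from bone marrow, had 3 and 6 reads in the controls and 15 and 27 after APAP, with folds of 3.75 (1.06 to 20.2) and 3.94 (1.59 to 11.7). The 24 h call was lost with the 48 h control pool (1.99-fold). Ms4a6c, a monocyte membrane protein gene, had 10 and 5 reads in the controls, 9 at 24 h and 35 at 48 h after APAP. It stood at 0.67 times its control (0.242 to 1.85) at 24 h, and its 48 h fold was 6.12 (2.39 to 20.02), or 2.89 with the 24 h control.

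Cx3cr1, the fractalkine receptor of patrolling monocytes, had 16 and 7 reads in the controls and 21 and 23 after APAP. It counted as risen at 48 h with a fold of 2.87 (1.19 to 7.93), yet the 48 h APAP library was only 1.19 times the 24 h control, so the call rests on the low count in the 48 h control pool. Ccr1, Itgam and Itgax each stayed at 12 reads or fewer in every library, and among them Itgam, the integrin chain CD11b, had risen at 48 h (1 read in the control and 12 after APAP, ratio 10.5, 1.55 to 449).

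Set within each library, where no scaling is needed, reads of the 7 resident genes made up 93.9% (95% Clopper-Pearson interval 91.9 to 95.6) of the 692 resident plus recruited monocyte reads in the 24 h control and 95.2% (93.3 to 96.6) of 707 in the 48 h control. The share was 80.6% (78.2 to 82.9) of 1104 reads at 24 h after APAP and 73.8% (71.4 to 76.0) of 1468 at 48 h. The intervals of the control libraries overlapped each other, and those of the APAP libraries overlapped neither the controls nor one another. Chil3 weighs on this value: without it the resident share was 95.03% and 95.9% in the controls, 90.8% (88.8 to 92.6) at 24 h and 88.3% (86.4 to 90.1) at 48 h after APAP. The intervals of the APAP libraries then overlapped each other but still lay under those of the controls.

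**Figure D3:**
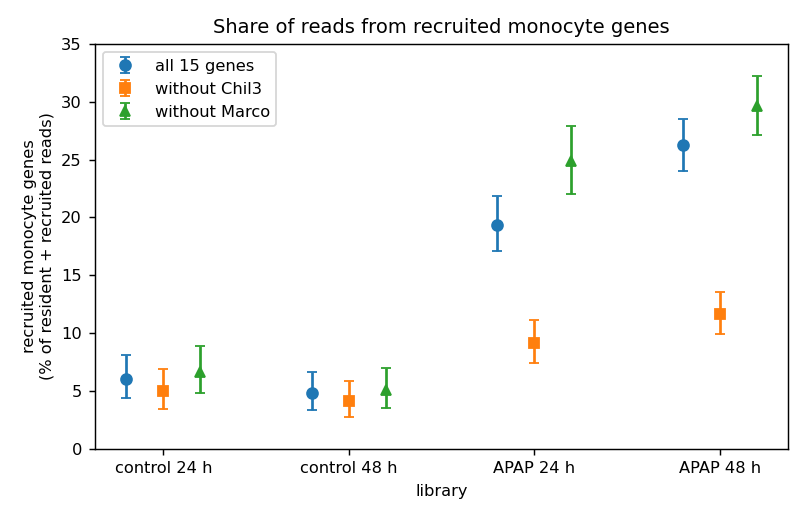
Recruited monocyte genes as a percentage of resident plus recruited monocyte reads in each library, with 95% Clopper-Pearson intervals, for all 15 genes and without Chil3 or Marco. With all genes the share was 6.07% and 4.81% in the controls, 19.4% at 24 h and 26.2% at 48 h after APAP.

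The neutrophil genes were counted rarely: 6 of the 7 stayed under 20 reads in every library. Their summed reads were 5 and 12 in the controls and 57 and 65 after APAP, giving folds of 8.54 (3.45 to 27.3) at the earlier time and 4.74 (2.54 to 9.64) at the later one. With the 24 h control the 48 h sum was 10.7-fold higher, so the lower value at 48 h depends on the control pool and no decline can be read from it.

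Cyp4f18 encodes a neutrophil enzyme that inactivates leukotriene B4. It had 0 and 4 reads in the controls and 15 and 20 after APAP. With the control count set to 3, the earlier fold was 3.75, and its counting interval ran from 2.69 upward. The later fold was 4.37 (1.46 to 17.6). With the 48 h control the 24 h value was 2.98 and its interval reached below 1. Retnlg, a secreted resistin-like protein of neutrophils, had 2 and 5 reads in the controls and 18 and 16 after APAP, and had risen at 24 h (ratio 6.74, 1.61 to 59.9) but not at 48 h (2.80, 0.980 to 9.77). Its APAP libraries held 15.331 and 15.002 normalised reads, its 48 h ratio was 6.598 (1.55 to 59.2) with the 24 h control, and the ratio of its folds, 0.415 (0.0358 to 3.05), had an interval that included 1, so the call at a single time rests on 2 against 5 control reads. Csf3r, the receptor for G-CSF, went from 0 to 11 reads at 48 h and Mmp8, neutrophil collagenase, from 1 to 11, and both had risen then, though Csf3r did not pass the rule with the 24 h control. The last bases of Csf3r contain a stretch shared with transcripts of 56 other genes, which makes its count uncertain. Cxcr2, Mmp9 and Ngp did not pass the rule at either time, and Ngp, a granule protein of immature neutrophils, had at most 1 read.

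Other neutrophil genes outside the 55 gave larger counts. Of 13 that were measured, 4 had risen at 24 h and 3 at 48 h, where 3.15% and 3.23% of all entries had. S100a8 and S100a9 encode calprotectin, the main cytosolic protein of neutrophils, which monocytes also make. S100a8 had 5 and 10 reads in the controls and 139 and 106 after APAP, with folds of 20.8 (8.71 to 65.2) and 9.27 (4.85 to 19.9), and S100a9 had 6 and 1 in the controls and 75 and 38 after APAP. Lcn2, which injured hepatocytes also express, had 3710 and 673 reads in the controls, a spread between control pools larger than its fold at 24 h of 2.38. After APAP it had 11781 and 3474 reads, and its 48 h fold was 4.51 (4.16 to 4.91). The 48 h APAP count lay under the 24 h control count, so the 48 h call rests on the low 48 h control. Among granule genes, Prtn3, which encodes proteinase 3, had 9 and 27 reads in the controls and 130 and 43 after APAP. It had risen at 24 h (10.8-fold, 5.53 to 24.2) but not at 48 h (1.39, 0.841 to 2.34). The 48 h control of Prtn3 held 27 reads against 9 at 24 h, so the missing call at 48 h may depend on the control pool. Elane, Camp and Ltf had 0 to 3 reads in any library. Ly6g, Mpo and Cxcr1 had no entry under these symbols in the count table, so no value can be given for them.

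Among the 7 genes of danger sensing and inflammatory signalling, 4 had risen at both times: P2rx7, Cd14, Adam8 and Clec4d. P2rx7, the ATP-gated channel that drives inflammasome activation, had 9 and 10 reads in the controls and 97 and 51 after APAP, for folds of 8.07 (4.08 to 18.2) and 4.46 (2.24 to 9.85). It stood highest at 24 h, and its folds were nearly the same with the other control pool, 7.71 and 4.67.

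Cd14, the co-receptor for lipopolysaccharide on monocytes and macrophages, was the only member that differed between the control pools by the same rule, with 5 reads at 24 h and 16 at 48 h (3.02-fold, 1.06 to 10.5), where 2.39% of entries differed in either direction. After APAP it had 77 reads at 24 h and 38 at 48 h, for folds of 11.5 (4.74 to 36.5) and 2.08 (1.13 to 3.99). With the control pools exchanged the folds were 3.82 and 6.27, and both still passed the rule. Hepatocytes also express Cd14.

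Adam8, a leukocyte surface protease, had 0 and 1 reads in the controls and 13 and 23 after APAP. With the control count set to 3, its 24 h fold was 3.25, and the counting interval ran from 2.28 upward. At 48 h the unadjusted ratio was 20.1 (3.27 to 829). Clec4d, a lectin that senses mycobacterial glycolipids, had 0 and 1 reads in the controls and 11 and 13 after APAP. Clec7a, the receptor for fungal beta-glucan, showed 21 and 18 reads in the controls and 19 and 28 after APAP, with intervals that included 1. Clec4e stayed at 5 reads or fewer. Il1b, the inflammasome cytokine, had at most 4 reads in any library, too few for a difference to be detectable.

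The 5 genes for Fc receptors and their adaptors, by which myeloid cells respond to antibody-coated targets, had all risen at 48 h and none at 24 h. Their summed reads were 234 and 257 in the controls and 459 and 655 after APAP. Fcer1g and Tyrobp encode signalling chains used by many activating receptors. Fcer1g had 108 and 97 reads in the controls and 202 and 225 after APAP, a fold of 1.40 (1.10 to 1.79) and then 2.03 (1.59 to 2.60). Tyrobp had 75 and 92 reads in the controls and 157 and 248 after APAP, a fold of 1.57 (1.18 to 2.09) and then 2.36 (1.85 to 3.03). For both the intervals lay above 1 at each time, and only the 48 h values reached 2-fold. With the 24 h control, Fcer1g fell short of the threshold at 48 h (1.72).

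The receptors themselves showed smaller counts and the same order of times. Fcgr1, which binds monomeric IgG, had 13 and 15 reads in the controls and 21 and 46 after APAP, with folds of 1.21 and 2.68 (1.47 to 5.17). Fcgr3 had 20 and 32 reads in the controls and 47 and 78 after APAP, with folds of 1.76 and 2.13 (1.40 to 3.33). Fcgr4 had 18 and 21 reads in the controls and 32 and 58 after APAP, with folds of 1.33 and 2.42 (1.44 to 4.19). The ratio of the 48 h to the 24 h fold had an interval that included 1 for each of these 3 receptors, so a difference between the times was not detectable for them.

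Of the 10 genes of macrophages and phagocytosis, 2 had risen at 24 h and 7 at 48 h, and their summed reads were 403 and 464 in the controls, 949 at 24 h and 1658 at 48 h after APAP. Lyz2, the lysozyme gene of myeloid cells, went from 84 to 384 reads at 24 h and from 107 to 659 at 48 h. Its folds were 3.42 (2.70 to 4.39) and 5.39 (4.38 to 6.67), and the second was 1.57 times the first (1.13 to 2.17). The neighbouring gene Lyz1 had 6 and 2 reads in the controls and 17 and 31 after APAP. Its 3′ end is 96.7% identical to that of Lyz2, and the reads of both genes together gave folds of 3.34 (2.65 to 4.24) and 5.54 (4.52 to 6.84).

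Cd68 encodes a lysosomal glycoprotein of phagocytes. It had 64 and 59 reads in the controls and 161 and 345 after APAP, with folds of 1.88 (1.40 to 2.56) and 5.11 (3.87 to 6.86). Trem2 is a lipid-sensing receptor of macrophages that handle debris, and signals through Tyrobp. It had 6 and 3 reads in the controls, 17 at 24 h and 50 at 48 h after APAP, a fold of 2.12 (0.799 to 6.58) and then a ratio of 14.6 (4.71 to 73.1). Gpnmb, a glycoprotein of lysosome-rich macrophages, had 1 and 7 reads in the controls, 16 at 24 h and 159 at 48 h. Normalised reads of the 48 h APAP library were 10.9 times those of the 24 h library, the 48 h fold was 19.9 (9.42 to 50.2), and the 24 h ratio of 11.99 (1.86 to 503) dropped to 1.82, and out of the call, with the 48 h control pool.

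Msr1, a scavenger receptor for modified lipoproteins, had 32 and 33 reads in the controls and 70 and 80 after APAP. Slc11a1, the phagosomal metal transporter, had 24 and 27 reads in the controls and 47 and 75 after APAP. Both had risen at 48 h, by 2.12-fold (1.40 to 3.28) and 2.43-fold (1.55 to 3.92). Ms4a7 stayed at 10 reads or fewer and did not pass the rule.

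Both general markers of macrophage identity differed little from their controls. Adgre1, which encodes F4/80, had 51 and 40 reads in the controls and 54 and 52 after APAP, with folds of 0.79 (0.531 to 1.19) and 1.14 (0.738 to 1.76). Csf1r, the receptor for the macrophage growth factors, had 134 and 184 reads in the controls and 178 and 197 after APAP, with folds of 0.995 (0.791 to 1.25) and 0.94 (0.762 to 1.15). Scaled by library totals, the Csf1r folds lay above 1 at both times, and neither gene was called under any scaling tried.

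Between the times, the fold at 48 h exceeded the fold at 24 h beyond counting error in 12 of the 46 members with at least 20 reads, or 26.1%, against 8.02% of such entries, and was smaller in 1 member, Cd14, against 9.7% of entries. The 12 were Clec4f, Vsig4, Cd5l, Chil3, Ms4a6c, Fcer1g, Tyrobp, Lyz2, Cd68, Trem2, Coro1a and Laptm5. These comparisons also carry the difference between the control pools. Exchanging the pools left the 48 h fold the larger in all 12. The gap was then small for Fcer1g (1.65 and then 1.72) and Chil3 (19.7 and then 24.9), and wider for Cd5l, Tyrobp and Lyz2. Cd14 changed direction (3.82 and then 6.27). Intervals were not computed for the exchanged ratios.

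**Figure D4:**
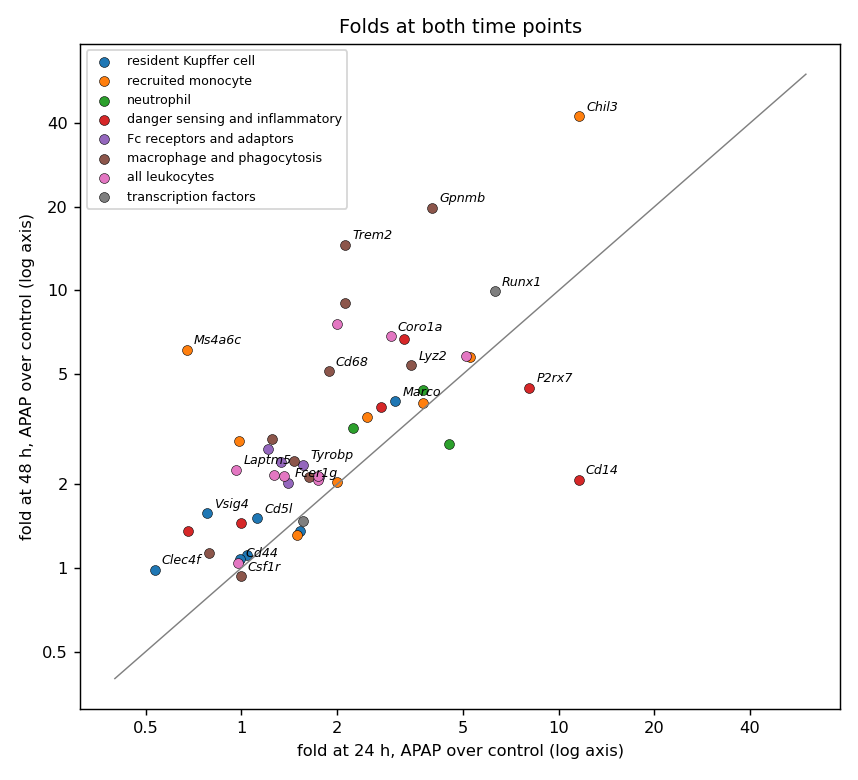
Fold at 24 h against fold at 48 h (both log axes, APAP over control of the same time, counts under 3 reads set to 3) for the 50 genes with a fold at both times, coloured by role. Points above the grey line of equality, 43 of 50, had the larger fold at 48 h; Cd14 and P2rx7 lie below it, and labels mark genes named in the text.

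The 9 genes expressed by all or most leukocytes included 2 that had risen at 24 h and 7 at 48 h. Coro1a, an actin-binding protein of blood cells, had 18 and 15 reads in the controls and 71 and 117 after APAP, with folds of 2.96 (1.74 to 5.27) and 6.82 (3.97 to 12.6). Lsp1, a cytoskeletal protein used in leukocyte migration, had 5 and 8 reads in the controls and 34 and 53 after APAP, with folds of 5.09 (1.98 to 16.7) and 5.79 (2.74 to 14.1). Lpxn, a focal adhesion protein of haematopoietic cells, had 0 reads in both controls, 8 at 24 h and 26 at 48 h. With the control count set to 3, its 48 h fold was 7.58, and the counting interval ran from 5.74 upward.

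A further 4 leukocyte genes had risen at 48 h, at folds close to the threshold. Cd52 had 66 and 69 reads in the controls and 154 and 164 after APAP, Cd53 had 23 and 27 and then 42 and 66, Laptm5 had 70 and 62 and then 90 and 160, and Lst1 had 26 and 19 and then 44 and 47. Their 48 h folds were 2.08, 2.14, 2.26 and 2.16 in that order, and with the 24 h control Laptm5 (1.89) and Lst1 (1.49) fell short of 2-fold.

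Ptprc, which encodes the common leukocyte antigen CD45, had 9 reads in each control and 21 and 22 after APAP, with folds of 1.75 (0.768 to 4.34) and 2.14 (0.946 to 5.27). Cd44, an adhesion receptor that other liver cells also carry, had 617 and 535 reads in the controls and 805 and 639 after APAP, with folds of 0.98 (0.879 to 1.09) and 1.04 (0.930 to 1.17). Its intervals were the narrowest of the 55 genes and lay around 1.

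The 2 transcription factors differed. Runx1, a regulator of blood cell development, had 5 and 2 reads in the controls and 42 and 34 after APAP, for a fold of 6.29 (2.49 to 20.4) at 24 h and a ratio of 14.9 (3.81 to 128) at 48 h. Spi1 encodes PU.1, the factor that sets up the myeloid programme. It had 23 and 32 reads in the controls and 48 and 54 after APAP, with folds of 1.56 (0.933 to 2.69) and 1.48 (0.936 to 2.36), short of the 2-fold rule at both times.

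Since PU.1 binds many myeloid promoters, the 250 bases before the start of each gene were searched for its core motif GAGGAA on both strands. Promoter sequence from RefSeq (build GRCm38.p6) was listed for 45 of the 55 genes. The motif was in 23 of the 45 (51.1%), against 23.1% of 27025 genes. Of genes that had risen at 48 h it was in 15 of 28, and of the others in 8 of 17. Promoters of 5 members are shown because their genes cover a resident marker, a recruited marker, an Fc receptor and macrophage genes with different courses. All 5 are among the 23 with the motif, so they do not represent the 45. Marco, the resident marker shown, is also the single resident gene that had risen. Capitals mark GAGGAA, or TTCCTC where it lies on the other strand.
Ly6c2: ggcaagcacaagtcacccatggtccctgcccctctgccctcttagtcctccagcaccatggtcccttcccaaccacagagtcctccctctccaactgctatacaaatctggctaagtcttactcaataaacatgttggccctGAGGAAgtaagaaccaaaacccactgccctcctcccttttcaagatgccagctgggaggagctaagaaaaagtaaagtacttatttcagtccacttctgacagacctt
Marco: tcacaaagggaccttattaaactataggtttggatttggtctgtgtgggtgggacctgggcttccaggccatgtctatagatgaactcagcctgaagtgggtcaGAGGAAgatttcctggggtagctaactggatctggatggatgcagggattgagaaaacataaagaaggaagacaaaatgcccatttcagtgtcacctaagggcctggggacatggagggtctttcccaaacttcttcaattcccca
Fcgr4: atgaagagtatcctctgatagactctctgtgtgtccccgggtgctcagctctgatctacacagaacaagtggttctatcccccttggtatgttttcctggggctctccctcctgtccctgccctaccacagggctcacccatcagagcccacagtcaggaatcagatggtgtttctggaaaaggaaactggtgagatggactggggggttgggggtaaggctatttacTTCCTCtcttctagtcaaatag
Cd68: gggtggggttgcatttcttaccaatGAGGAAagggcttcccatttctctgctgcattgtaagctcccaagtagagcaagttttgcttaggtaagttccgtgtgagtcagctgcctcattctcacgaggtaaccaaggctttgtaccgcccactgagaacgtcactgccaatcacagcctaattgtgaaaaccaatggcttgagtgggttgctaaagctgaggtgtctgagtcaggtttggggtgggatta
Trem2: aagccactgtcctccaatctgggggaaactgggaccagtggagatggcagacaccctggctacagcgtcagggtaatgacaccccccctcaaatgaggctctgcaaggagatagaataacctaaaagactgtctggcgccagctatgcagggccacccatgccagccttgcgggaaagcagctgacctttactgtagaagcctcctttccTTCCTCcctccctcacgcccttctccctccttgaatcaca
These windows lie at chr15:75111972-75112221 (minus strand) for Ly6c2, chr1:120505025-120505274 (minus strand) for Marco, chr1:171018676-171018925 (plus strand) for Fcgr4, chr11:69666171-69666420 (minus strand) for Cd68 and chr17:48346151-48346400 (plus strand) for Trem2, and each holds the motif once. Its first base lies 108 bases before the start of Ly6c2, 146 before Marco, 22 before Fcgr4, 225 before Cd68 and 40 before Trem2. The longer form GAGGAAGT was in 3 of the 45 (Ly6c2, Fcgr4 and Mmp8), against 2.44% of genes. The overlapping ETS motifs GGAAGT and GGAAG were in 19 and 34 of the 45, against 19.99% and 63.6% of genes. TGAGTCA, the AP-1 motif, was in 3, against 4.43%. TTGCGCAA, a C/EBP motif, and the 10-base NF-kB consensus were in 0, against 0.170% and 0.130%. A match is a description of these letters in this window and not a binding site.

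Further Kupffer cell genes that are not among the 55 showed a like picture. Of 11 such genes, 1 had risen at 24 h (Cd207, 2.34-fold, from 8 to 25 reads) and 1 at 48 h (Id3, 2.22-fold), while C6 was 2.16 times lower at 24 h. At 48 h C6 still stood at 0.503 times its control (0.444 to 0.569), just short of the 2-fold rule. Over all entries, 3.15% had risen at 24 h and 3.23% at 48 h, and 3.07% were lower at 24 h. C6 and Id3 are also expressed by other liver cells. The complement genes C1qa, C1qb and C1qc, which tissue macrophages supply, had 229 to 480 reads in every library. Their folds were 0.94, 0.87 and 0.69 at 24 h and 1.48, 1.47 and 1.31 at 48 h, so none reached 2-fold and none was called. The interval lay under 1 for C1qc at 24 h (0.573 to 0.828). At 48 h it lay above 1 for C1qa (1.28 to 1.72), C1qb (1.26 to 1.72) and C1qc (1.11 to 1.55).

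Among 20 other monocyte and macrophage genes, 3 had risen at 24 h and 8 at 48 h, where 3.15% and 3.23% of all entries had. Aif1 was under its control at 24 h, at 0.57 times (0.349 to 0.926), and had risen at 48 h (3.16-fold, 1.93 to 5.40). Lgals3, which encodes galectin-3, had 45 and 46 reads in the controls and 173 and 644 after APAP, with folds of 2.88 (2.06 to 4.09) and 12.2 (9.07 to 16.9). Mmp12, macrophage elastase, had 2 and 1 reads in the controls and 41 and 54 after APAP. Cybb, the catalytic chain of the phagocyte oxidase, had 46 and 44 reads in the controls and 46 and 82 after APAP and did not pass the rule. Fabp5, which hepatocytes also express, was lower at both times, by 7.78 times at 24 h and 9.92 times at 48 h.

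Markers of lymphocytes were at low levels throughout. The 8 T cell genes summed to 32 to 37 reads, the 5 measured B cell genes to 10 to 15 and the 6 NK cell genes to 6 to 14 in the 4 libraries, and none of these genes had risen; Nkg7 was lower at 24 h (8 reads in the control and 0 after APAP), and Cd8a had 0 reads in every library, which allows up to 3 reads in each, or 0.526 to 0.617 rpm. The 6 dendritic cell genes summed to 24 and 32 reads in the controls and 36 and 38 after APAP, and 1 of them, Clec9a, had risen at 24 h (0 and 2 reads in the controls, 13 and 4 after APAP). The 6 sinusoidal endothelial genes summed to 1.09 times their control (0.984 to 1.21) at 24 h and 1.05 times (0.947 to 1.16) at 48 h. Of these, Lyve1 had risen at both times, by 2.62-fold (1.62 to 4.42) and 2.04-fold (1.31 to 3.24), and Pecam1, which leukocytes and platelets also carry, stood at 1.67 (1.23 to 2.30) and 1.94 (1.42 to 2.66), short of 2-fold. The 5 stellate cell genes summed to 142 and 156 reads in the controls and 190 and 226 after APAP, and 1 of them, Des, had risen at 48 h (2.22-fold, 1.37 to 3.73). The part of these cells in the values of the 55 genes was not tested.

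The hepatocyte genes Alb and Apoa1 defined the tissue, and the 6 measured hepatocyte genes summed to 345265 to 432687 reads. Globin and Alas2 reads, a measure of red cells left in the tissue, were 17751 and 12826 in the controls and 16580 and 7825 after APAP. They were 0.70 times their control at 24 h and 0.53 times at 48 h, while the platelet gene Pf4 had risen at 48 h from 8 to 32 reads; the part that residual blood plays in the leukocyte counts was not tested.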

How the data were processed

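Hepatic RNA of 4 pools was sequenced by the authors as 3′ ends with MACE; duplicates were removed by unique molecular identifiers, reads were trimmed with cutadapt, poly(A) tails were clipped, and reads were mapped to mm10 and counted per gene with HTSeq. The deposited raw counts of 27027 entries, whole numbers that were not normalised, were used here. The authors' own normalised values, fold changes and p-values were not used. Strand and multi-mapping settings of the counting are not given in the sources used here; Itgam and Ptprc entries include reads that HTSeq could not separate from another gene ID. Each pool gave 1 library of 4859661 to 5698778 reads.

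Size factors were computed over all genes with DESeq2 1.42.0 (median of ratios), which was used for no test. Folds and their 95% exact Clopper-Pearson intervals were computed per entry with SciPy 1.17.1, with a floor of 3 reads, and the ratio of the 48 h to the 24 h fold by the exact conditional interval of 4 counts. Intervals and floors cover counting error only. Shared 3′ ends were found with blastn 2.17.0 over the last 300 bases of GRCm38 transcripts (at least 95% identity over 100 bases, or 85% over 290). The scripts were tested on simulated data. Read counts are given for the 42 members with at least 20 reads in a library and all resident genes; of the remaining 13, those named were chosen after their values were seen. The members and lists were chosen with earlier results of these data known. Alternatives were edgeR 4.0.16 TMM and library totals, the other control pool, both controls summed, other floors, a pseudocount, and lists without single genes.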

Additional observations from a re-analysis of the deposited data

Results flagged for a closer look

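For 13 members the fold at 48 h differed from the fold at 24 h beyond counting error, by the exact conditional interval of the ratio of both folds, which compares 4 libraries and not mice. In 12 of the 46 members with at least 20 reads (26.1%) the interval lay above 1, as in 8.02% of all such entries, and in 1 it lay under 1, as in 9.7% of entries. The ratio of the 48 h to the 24 h fold was 1.84 for Clec4f, 2.01 for Vsig4 and 1.35 for Cd5l among resident Kupffer cell genes. It was 3.64 for Chil3 and 9.08 for Ms4a6c among recruited monocyte genes. Among adaptors and leukocyte genes it was 1.45 for Fcer1g, 1.503 for Tyrobp, 2.31 for Coro1a and 2.34 for Laptm5. Among macrophage genes it was 1.57 for Lyz2, 2.71 for Cd68 and 6.87 for Trem2. Cd14 alone had the smaller fold at 48 h, with a ratio of 0.180, and its control pools also differed 3.02-fold. All of these ratios carry the difference between the control pools, and their intervals were not recomputed with the pools exchanged.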

How the results depend on the processing

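No member was called lower under any alternative listed here. The count of members higher at 24 h was 15, against 23 with both control pools summed and 8 with a floor of 10 reads. At least 5-fold induction at 24 h, passed by 6 members, was passed by 19 with no floor, 3 with a floor of 10 reads and 11 with a pseudocount. At 48 h the 13 became 20 with no floor and 5 with a floor of 10 reads. The only member that differed between control pools was lost with a floor of 10 reads, which left 0. Summed resident genes moved from 1.03 to 1.17 at 24 h and from 1.41 to 1.69 at 48 h with library totals, and to 0.819 and 1.26 without Marco, which turned the direction at 24 h. Summed recruited monocyte genes fell short of their main folds without Chil3, the most abundant gene, at 1.98 and 4.31. Neutrophil genes at 48 h reached 10.7 with the other control pool. The resident share in the 24 h APAP library was 87.2% without the most abundant gene of each list, 75.1% without Marco and 90.8% without Chil3, and in the 48 h APAP library 83.0%, 70.4% and 88.3%. Leaving out Marco, and Chil3 from the share, was chosen after seeing the data. The other 81 recomputed values stayed within 1.5 times the main count or within its counting interval. With library totals the point estimate crossed 1 for Folr2, Cx3cr1, Csf1r, Cd44 and Laptm5 at 24 h and for Clec4f and Csf1r at 48 h. With the other control pool 3 of the 15 calls at 24 h and 5 of the 34 at 48 h were lost, 6 (Itgam, Csf3r, Lyz1, Cd68, Trem2 and Lpxn) and 2 (Retnlg and Ms4a7) were gained, and 11 members passed at both times with either control.

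No paired analysis was possible because each group is 1 pooled library, and no replicate could be left out. Depth limits the 13 members under 20 reads, which summed to 9 and 18 reads in the controls and 90 and 99 after APAP.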
